A study of Mus musculus with 20 samples.

Results

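A set of 10 genes that build, coat and break down triglyceride stores were followed through 4 groups of mouse hindlimb muscle. They were taken by symbol from the deposited table, and all 10 members of the set were found among its 21844 genes, each on a single row. Messenger RNA was measured by sequencing in 20 libraries, with 5 libraries in each group. Per the labels, every mouse carried the Cre+:iMSBmal1 fl/fl genotype, so the controls had the floxed Bmal1 gene and the Cre transgene too. Bmal1 encodes a transcription factor of the circadian clock, and the promoter that drives Cre is not given in the sources used here. The groups were vehicle without exercise, labelled iMSBmal1KO without exercise, vehicle with exercise training and labelled iMSBmal1KO with exercise training. They are called vehicle sedentary, knockout sedentary, vehicle trained and knockout trained. Training ran daily on a treadmill for 6 weeks. The sample field gives collection 48 hours post and the series design 47 hours after the last bout. The muscle is named gastrocnemius in one field and tibialis anterior in another, and age and sex were not used here. No label says that the libraries of a group come from separate animals, so p-values measure only the spread between these samples.

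Triglyceride is assembled on the endoplasmic reticulum from glycerol 3-phosphate and activated fatty acids, and is kept in lipid droplets. Muscle fibres hold small droplets next to their mitochondria and draw on them during sustained work. Among the 10 genes, Gpam encodes the mitochondrial enzyme that adds the first acyl chain, and Dgat1 and Dgat2 encode unrelated enzymes that add the last. Plin2 and Plin5 encode droplet coat proteins, of which the second is found mostly in tissues that burn fat. Pnpla2 encodes ATGL, the lipase that takes the first acyl chain off triglyceride, and G0s2 encodes a protein inhibitor of that lipase. Lipe encodes hormone-sensitive lipase, which acts mainly on diglyceride, and Mgll encodes monoglyceride lipase. Pnpla3 encodes a relative of ATGL that also resides on droplets.

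Sequences upstream of the genes were read from RefSeq promoter windows of GRCm38.p6, which run from 250 bases before to 50 bases after a gene's start. Entries were found for 8 of the 10 genes, and the 2 without one are Dgat1 and Dgat2. The searches covered 2 motifs on both strands, the E-box CACGTG, which BMAL1 with its partner is known to bind, and the nuclear receptor half-site AGGTCA or its reverse complement TGACCT. The motifs do not overlap each other. An E-box was found in 7.15% and a half-site in 16.3% of all 32851 windows of 300 bases. These shares are per window, and the 8 genes have 12 windows. Windows of Plin2, Mgll and Lipe held an E-box, and windows of Plin5, Plin2 and Gpam held a half-site. Mgll and Lipe each have a further window without an E-box. The second window of Plin5 also held a half-site, with its first base at position 14. Of the 2 Gpam windows, the one with the half-site is the one whose bases after the start were not found in an annotated transcript, and the other held no match. The first 2 stretches are shown because these genes had the highest knockout to vehicle ratios of the set, and they end at the base before the start. Capitals in the Plin5 stretch (chr17:56117549-56117798, minus strand) mark its half-site, whose first base lies at position -170. The Pnpla3 stretch (chr15:84167566-84167815, plus strand) held neither motif and has no capitals. Bases just after that start were not found in the annotated transcripts of Pnpla3, so its start is less certain than that of Plin5, where they were found.
Plin5: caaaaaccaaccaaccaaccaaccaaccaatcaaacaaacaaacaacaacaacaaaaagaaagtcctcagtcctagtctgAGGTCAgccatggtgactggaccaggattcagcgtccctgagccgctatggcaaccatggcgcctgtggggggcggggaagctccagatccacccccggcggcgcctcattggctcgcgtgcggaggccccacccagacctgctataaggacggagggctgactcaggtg
Pnpla3: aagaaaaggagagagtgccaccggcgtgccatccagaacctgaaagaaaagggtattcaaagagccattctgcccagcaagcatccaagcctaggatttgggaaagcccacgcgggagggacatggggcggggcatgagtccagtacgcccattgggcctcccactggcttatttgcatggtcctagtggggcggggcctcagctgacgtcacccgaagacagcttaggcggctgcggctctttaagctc

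The other 3 stretches, each of 60 bases, are shown because they hold the E-boxes found in the set, marked by capitals. They lie at chr4:86670031-86670090 (minus strand) for Plin2, at chr6:88724341-88724400 (plus strand) for Mgll and at chr7:25396110-25396169 (minus strand) for Lipe. The first base of the motif stood at position -4, -44 and -155 from the start, in that order.
Plin2: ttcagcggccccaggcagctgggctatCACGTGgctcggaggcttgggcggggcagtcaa
Mgll: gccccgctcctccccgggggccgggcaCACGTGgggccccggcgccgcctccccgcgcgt
Lipe: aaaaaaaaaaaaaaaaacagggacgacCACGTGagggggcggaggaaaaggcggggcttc
None of these 3 genes passed the test between the labelled genotypes when all samples were fitted. Of all tested genes 2.33% passed in sedentary and 3.29% in trained muscle. In 1 of 24 other settings Mgll passed in sedentary muscle, and in 1 of 24 Lipe passed in trained muscle. A match describes letters in a window and is no measurement of binding.

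Before the results, 4 properties of the libraries bear on them. Total estimated counts lay between 10610333 and 19153527 per library. In the knockout trained group, 2 pairs were nearly the same. Their squared differences at high counts were 2.38 times (libraries 1 and 4) and 1.75 times (libraries 3 and 5) the counting expectation, against 6.38 times or more in every other pair of libraries, and each pair was counted as 1 sample, which leaves n = 3 in this group and 18 samples in all. Library 2 of the vehicle trained group stood apart, with 4994 of 14359 genes more than 2-fold from its group, against 262 to 1221 in the other samples, so results are given with and without it. Arntl, the listed symbol of the targeted gene, was higher rather than lower in every knockout sedentary library. Its level was 5.68 to 7.93 CPM, a count relative to its library total times a constant, in vehicle sedentary and 10.96 to 18.9 CPM in those labelled knockout sedentary. In trained muscle the log2 difference was -1.57 (SE 0.87, edgeR adjusted p = 0.372), which rests on library 2 of the vehicle trained group at 132.3 CPM. The other 4 vehicle trained libraries were at 6.32 to 6.68 CPM, below the knockout trained samples at 8.04 to 16.1 CPM. Without that library 2 Arntl passed as higher in trained muscle, with a log2 difference of 0.81 (SE 0.20, edgeR adjusted p = 0.0148). In sedentary muscle it then passed as higher too, at 0.92 (SE 0.17, edgeR adjusted p = 0.00115). With all samples the sedentary difference was 0.91 (SE 0.74, edgeR adjusted p = 0.886). Directions below therefore rest on the labels. Muscle fibre markers such as Ckm and Acta1 were abundant in every library, with a summed level of 44528 CPM or more. These are bulk samples, in which fewer cells of a type and less RNA per cell cannot be told apart.

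Every one of the 10 genes passed the filter on low counts, which asked for 1 CPM in at least 5 of 20 libraries. Per kb of exon, Pnpla2 was the most abundant of the set in vehicle sedentary muscle at 62.0 ± 4.92 CPM per kb (SD, n = 5), followed by G0s2 at 56.5 ± 10.3 and Gpam at 34.3 ± 4.87. These 3 genes led in all 4 groups, by their means with library 2 of the vehicle trained group included. Pnpla2 and G0s2 lay within their spread of each other in all groups but knockout trained, where they were at 79.4 ± 8.84 and 50.3 ± 6.28 CPM per kb (SD, n = 3) and did not overlap. In knockout sedentary muscle the overlap came from library 1 alone, with G0s2 at 90.7 CPM per kb. The other libraries of that group held G0s2 at 31.8 to 51.2 CPM per kb, below the lowest Pnpla2 value of 65.7. Dgat2 was ranked 4 in vehicle sedentary muscle at 22.02 ± 5.15 CPM per kb and 7 in knockout sedentary muscle at 6.63 ± 0.994. Plin5 moved the other way, from rank 6 at 8.36 ± 1.23 CPM per kb to rank 4 at 14.3 ± 3.40. Mgll, Plin5 and Plin2 were close neighbours in vehicle sedentary muscle, at 10.6 ± 1.30, 8.36 ± 1.23 and 8.01 ± 0.671 CPM per kb. Lipe, Dgat1 and Pnpla3 were the 3 lowest in every group.

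**Figure D1:**
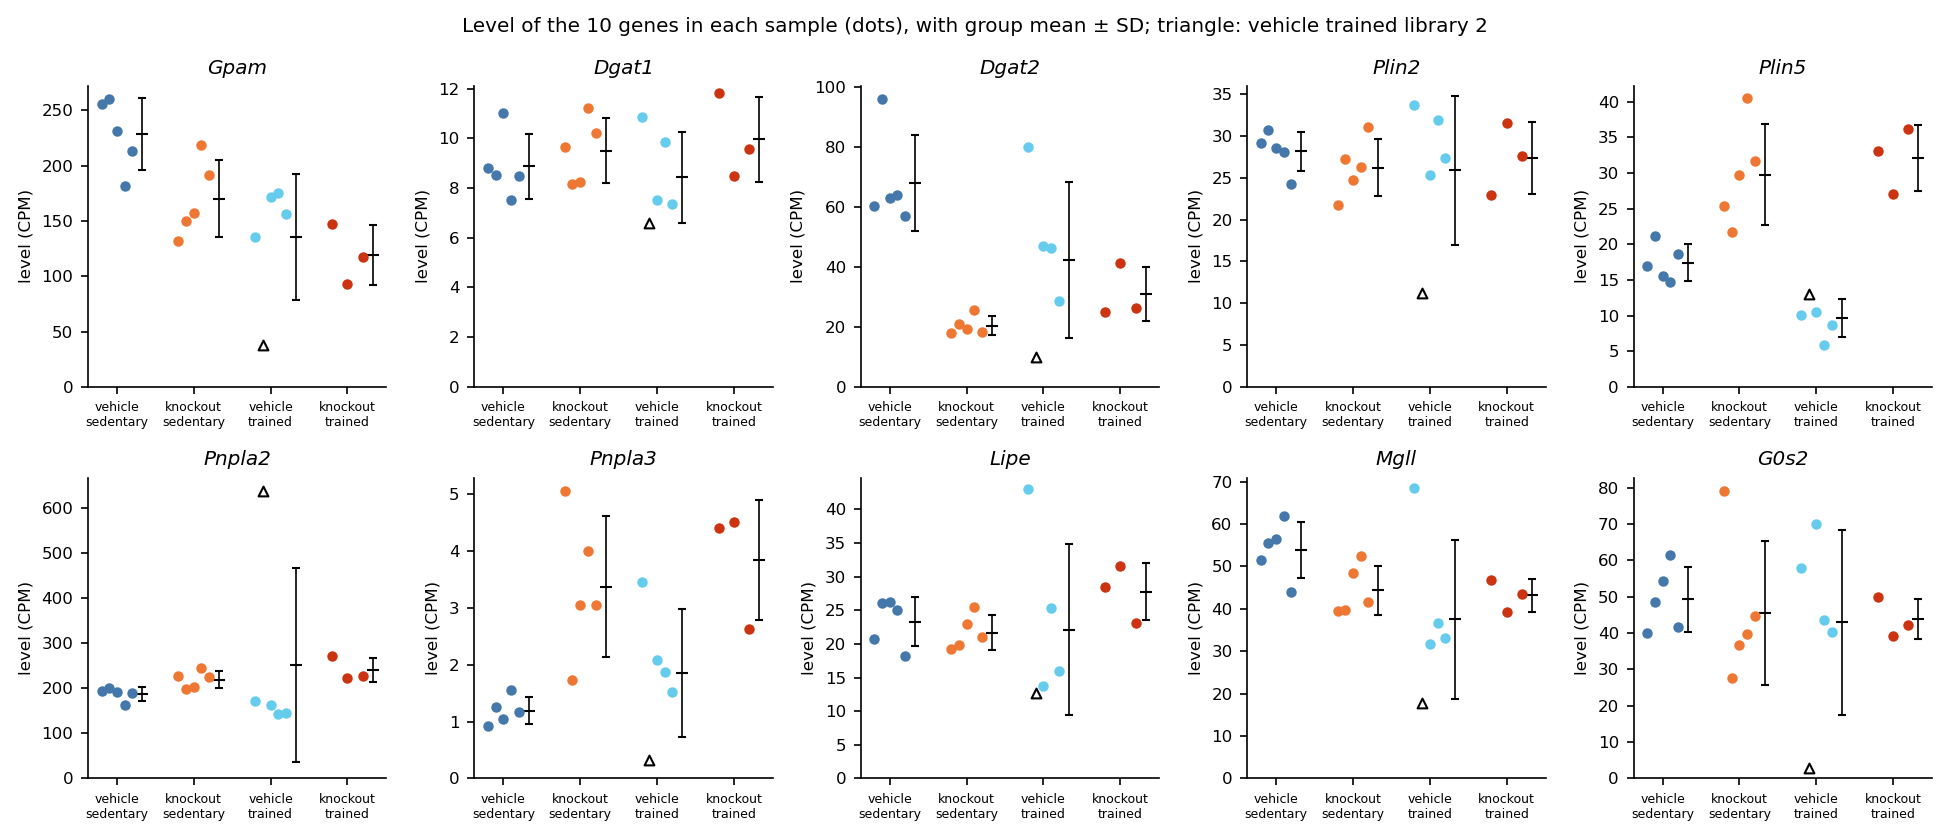
Each panel plots 1 of the 10 genes, with the level in CPM on the vertical axis and the 4 groups along the horizontal axis; dots are samples, the triangle is library 2 of the vehicle trained group, and bars are the group mean ± SD (n = 5, 5, 5 and 3). Dgat2 is at 17.98 to 25.5 CPM in the knockout sedentary samples against 56.9 to 95.9 CPM in the vehicle sedentary ones, and all knockout samples of Plin5 lie above all vehicle samples.

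The first question was what the knockout label changed in sedentary muscle. Dgat2 was 3.32-fold lower in knockout sedentary libraries, while Plin5 was 1.71-fold and Pnpla3 2.84-fold higher by the group means, and the other 7 genes differed by less. Of the 10 genes, 1 passed at an adjusted p under 0.05 (edgeR quasi-likelihood test, Benjamini-Hochberg over all genes), which was Dgat2, against 2.33% of all 14359 tested genes. Without library 2 of the vehicle trained group, which is in neither group compared but enters the shared estimate of spread, 3 of the 10 passed, Dgat2 lower and Plin5 and Pnpla3 higher, against 6.98% of all tested genes. At an unadjusted p under 0.05 there were 3 of 10 with all samples, Dgat2, Plin5 and Pnpla3, against 9.81% of all tested genes. The median log2 change of the 10 genes was -0.15 with all samples, beside 0.01 over all tested genes. Where groups are said below not to overlap, the share of all tested genes without overlap was not counted.

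Among the genes of synthesis, Dgat2 (ENSMUSG00000030747) was measured at 60.1, 95.9, 62.8, 63.8 and 56.9 CPM in the vehicle sedentary libraries. In the knockout sedentary libraries it was at 17.98, 21.1, 19.3, 25.5 and 18.3 CPM. The highest knockout value was thus below the lowest vehicle value, and library 2 of the vehicle group stood well above its other 4. The means were 67.9 ± 15.9 and 20.4 ± 3.06 CPM (SD, n = 5 each), a log2 difference of -1.79 (SE 0.35, edgeR adjusted p = 0.00633). This call held in all 24 settings tried, with adjusted p values from 1.35e-06 to 0.0260. Dgat1, the other enzyme of the same step, was at 8.87 ± 1.30 and 9.50 ± 1.31 CPM, a log2 difference of 0.04 (SE 0.15, edgeR adjusted p = 1.00), and its groups overlapped. Gpam was at 228.3 ± 32.5 and 169.8 ± 34.8 CPM, a log2 difference of -0.48 (SE 0.28, edgeR adjusted p = 0.681), with overlap.

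Within each sample the level of Dgat2 per kb was set against that of Dgat1. The ratio was 5.65 to 11.2, median 6.76, in vehicle sedentary and 1.77 to 2.55, median 2.25, in knockout sedentary samples. In trained muscle it was 1.48 to 7.31 in vehicle and 2.10 to 4.82 in knockout samples. The sedentary groups stood apart in this ratio and the trained groups overlapped, with library 2 the lowest vehicle trained sample.

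Of the coat proteins, Plin5 (ENSMUSG00000011305) was at 17.0, 21.2, 15.6, 14.7 and 18.7 CPM in the vehicle sedentary libraries. The knockout sedentary libraries gave 25.4, 21.8, 29.7, 40.5 and 31.6 CPM. No values overlapped, but knockout library 2 lay only just above the highest vehicle library. The means were 17.4 ± 2.56 and 29.8 ± 7.10 CPM (SD, n = 5 each), a log2 difference of 0.72 with SE 0.21, which did not pass (edgeR adjusted p = 0.0992). Without library 2 of the vehicle trained group the change was 0.72 with SE 0.18 and passed (edgeR adjusted p = 0.0173). Plin2 was at 28.1 ± 2.36 and 26.2 ± 3.41 CPM, a log2 difference of -0.15 (SE 0.20, edgeR adjusted p = 0.974).

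The lipases differed less, apart from Pnpla3 (ENSMUSG00000041653). It was at 0.928, 1.26, 1.04, 1.55 and 1.16 CPM in vehicle sedentary libraries and at 5.06, 1.73, 3.05, 4.00 and 3.05 CPM in knockout sedentary ones. All knockout values were above all vehicle values, with knockout library 2 again the nearest to them. The log2 change was 1.45 (SE 0.39, edgeR adjusted p = 0.0638), and without library 2 of the vehicle trained group 1.45 (SE 0.29, edgeR adjusted p = 0.00246). The gene shares 105 bases of exon with Gm49513 on the same strand, so its low counts are uncertain. Pnpla2 gave a log2 difference of 0.17, Lipe -0.15, Mgll -0.33 and G0s2 -0.16, each with overlap between the groups and an adjusted p of 0.782 or more (edgeR). The strand setting of the counting is not given in the sources used here. Lipe and Mgll share 918 and 167 bases with genes on the opposite strand, and their counts carry that uncertainty.

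Adipocyte RNA could enter such samples, since fat cells lie between muscle fibres and several of the 10 genes are abundant in fat. The summed level of 7 adipocyte markers was 222 to 454 CPM, median 319, in vehicle sedentary and 300 to 377 CPM, median 335, in knockout sedentary libraries. The groups overlapped wholly, and 0 of the 6 markers that passed the filter differed in any of the 5 comparisons with all samples (edgeR), with 0 in sedentary and 0 in trained muscle at an unadjusted p under 0.05 for the knockout. Adipoq, which encodes adiponectin, was at 14.1 ± 9.79 CPM and 13.1 ± 4.52 CPM in the sedentary groups, and Fabp4, which endothelial cells express too, at 237.5 ± 46.5 and 264.4 ± 30.8 CPM (SD, n = 5 each). Adrb3, the marker below the filter, averaged under 1 CPM in each group.

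The second question was the same comparison after training. Plin5 was 3.33-fold higher by the group means in knockout trained than in vehicle trained samples, and no other member passed with all samples. That is 1 of 10 genes (edgeR, adjusted p under 0.05), against 3.29% of all tested genes. Without library 2 of the vehicle trained group 2 of 10 passed, Plin5 and Pnpla2, both higher, against 8.66% of all tested genes. Plin5 and Pnpla3, 2 of 10, had an unadjusted p under 0.05 with all samples, against 17.2% of all tested genes. The median log2 change of the 10 genes was 0.20, beside -0.03 over all tested genes.

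Vehicle trained libraries held Plin5 at 10.1, 13.1, 10.5, 5.92 and 8.73 CPM. The 3 knockout trained samples held it at 33.1, 27.1 and 36.2 CPM. Every knockout sample was more than 2-fold above every vehicle sample, library 2 included. The means were 9.66 ± 2.62 (SD, n = 5) and 32.1 ± 4.66 CPM (SD, n = 3), a log2 difference of 1.76 (SE 0.24, edgeR adjusted p = 0.000354). It passed in 23 of 24 settings; with only these 2 groups in the fit the change was 1.76 and the adjusted p 0.0513 (edgeR). Plin2 was at 25.9 ± 8.90 and 27.4 ± 4.28 CPM, a log2 difference of 0.14 (SE 0.23, edgeR adjusted p = 0.792). It was -0.03 without library 2.

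The ratio of Plin5 to Plin2 per kb was 0.882 to 1.29 in vehicle sedentary and 1.35 to 2.59 in knockout sedentary samples. In trained muscle it was 0.313 to 1.97 in vehicle samples, where library 2 alone lay above 0.698, and 1.45 to 2.43 in knockout samples. The sedentary groups did not overlap in this ratio, and the trained groups overlapped through library 2.

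Pnpla2 (ENSMUSG00000025509) turned on that library as well. Vehicle trained libraries held it at 172, 637, 162, 142 and 146 CPM, and knockout trained samples at 270, 221 and 227 CPM. Library 2 was the highest of all samples and the other 4 were below every knockout sample. The log2 change was -0.07 (SE 0.39, edgeR adjusted p = 0.950), and without library 2 it was 0.68 (SE 0.12, edgeR adjusted p = 0.000897). The mean of the 4 other vehicle trained libraries was 155.3 ± 14.2 CPM (SD, n = 4). Its inhibitor G0s2 was at 57.9, 2.71, 70.1, 43.4 and 40.4 CPM in vehicle trained libraries, lowest in library 2, and at 49.9, 39.3 and 42.3 CPM in knockout trained samples. The ratio of G0s2 to Pnpla2 per kb was 0.0148 in library 2 and 1.17, 1.503, 1.06 and 0.962 in the other 4 vehicle trained libraries. In knockout trained samples it lay between 0.616 and 0.644, below those 4 and above library 2. In sedentary muscle the ratio was 0.714 to 1.32, median 0.846, in vehicle and 0.485 to 1.21, median 0.629, in knockout samples. Knockout sedentary library 1 gave the 1.21 and the others were at 0.690 or less, so the sedentary groups overlapped through that library.

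Dgat2 overlapped between the trained groups, with 80.0, 9.84, 46.9, 46.2 and 28.8 CPM in vehicle and 25.1, 41.3 and 26.2 CPM in knockout samples. Its log2 change was -0.39 (SE 0.39, edgeR adjusted p = 0.640), and -0.64 with SE 0.27 without library 2 (edgeR adjusted p = 0.155). Pnpla3 was at 3.45, 0.3303, 2.09, 1.88 and 1.52 CPM in vehicle and 4.40, 4.51 and 2.63 CPM in knockout samples, a log2 difference of 1.09 (SE 0.42, edgeR adjusted p = 0.183). For Dgat2, vehicle library 5 lay within the knockout range and library 2 below it. For Pnpla3, vehicle library 1 lay within the knockout range. Vehicle trained library 1 had the highest summed adipocyte markers of all samples, 1045 CPM, with a group median of 282 CPM. Its Lipe (43.1 CPM), Mgll (68.5 CPM), Dgat2 (80.0 CPM), Pnpla3 (3.45 CPM), Dgat1 (10.9 CPM) and Plin2 (33.7 CPM) were the highest of the group too. Gpam, Plin5, Pnpla2 and G0s2 were not highest in that library. Without library 1 Lipe gave a log2 difference of 0.76 (edgeR adjusted p = 0.0214), against 0.39 with SE 0.27 with all samples (edgeR adjusted p = 0.498). In knockout trained samples the adipocyte sums were 361 to 681 CPM, median 473, and the part of these markers in the results was not tested. Gpam, Dgat1, Mgll and G0s2 did not pass in trained muscle, with log2 changes of -0.14, 0.29, 0.26 and 0.07 and adjusted p values of 0.400 or more (edgeR).

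**Figure D2:**
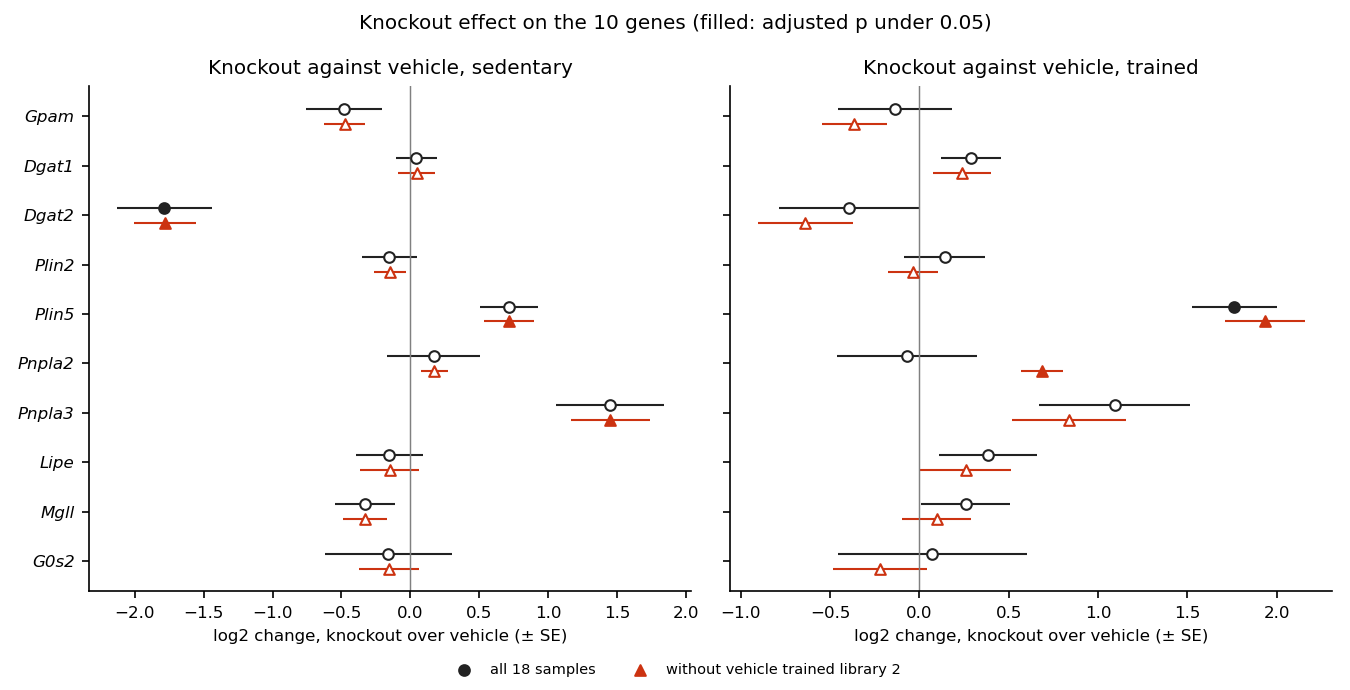
The log2 change of each gene, knockout over vehicle (± SE), is plotted along the horizontal axis for sedentary (left) and trained muscle (right), with all 18 samples as black circles and without library 2 of the vehicle trained group as red triangles; filled symbols have an adjusted p under 0.05. Dgat2 stands at -1.79 in sedentary muscle, Plin5 at 1.76 in trained muscle, and Pnpla2 in trained muscle moves from -0.07 to 0.68 when the library is left out.

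The third question was what training changed within each labelled genotype. These comparisons share their samples with those above, so their values are given on their own. None of the 10 genes passed in vehicle muscle (edgeR, adjusted p under 0.05), where 0% of all tested genes did, and DESeq2 called 0 of the 10 as well. At an unadjusted p under 0.05 there were 3 of 10 with all samples, Gpam, Plin5 and Mgll, against 15.2% of all tested genes. Without library 2 of the vehicle trained group there were 4 of 10, against 1869 of all 14359 tested genes. They were Gpam, Plin5 and Pnpla2, all lower, and Pnpla3, higher. After adjustment 0 of the 10 passed in that fit, and 0 of all tested genes. Gpam was at 256, 260, 231, 181 and 213 CPM in vehicle sedentary and 136, 37.7, 171, 175 and 156 CPM in vehicle trained libraries. Every trained value was below every sedentary value, and library 2 was the lowest. The log2 change was -0.72 (SE 0.28, edgeR adjusted p = 0.278), and -0.48 without library 2. Plin5 did not overlap either, with trained values at most 13.1 CPM and sedentary values at least 14.7 CPM. Its log2 change was -0.79 (SE 0.22, edgeR adjusted p = 0.272). The share of all tested genes that did not overlap in this comparison was not counted. Mgll gave -0.49 (SE 0.22, edgeR adjusted p = 0.313), with overlap through library 1. Pnpla2 gave 0.50 with all samples and -0.24 without library 2, and neither passed. Pnpla3 gave 0.67 with all samples (SE 0.40, edgeR adjusted p = 0.407) and 0.93 without library 2 (SE 0.31, edgeR adjusted p = 0.357). Markers of other cells moved in this comparison too. All 6 macrophage markers were higher after training at an unadjusted p under 0.05, with a median log2 change of 1.08. The 6 tested adipocyte markers had a median of 0.86, with 1 at that p. Without library 2 it was 3 macrophage markers, with a median of 0.88, and 3 adipocyte markers, with a median of 1.15. None passed after adjustment (edgeR), and their part in the values of the 10 genes was not tested.

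In knockout muscle 0 of the 10 genes passed for training (edgeR), where 0% of all tested genes did, and DESeq2 called 0 of the 10. At an unadjusted p under 0.05 it was 0 of 10 as well with all samples, against 9.71% of all tested genes. The highest log2 change was that of Dgat2 at 0.74 (SE 0.39, edgeR adjusted p = 0.578), from 20.4 ± 3.06 CPM (SD, n = 5) to 30.9 ± 9.05 CPM (SD, n = 3). Knockout trained library 2, at 41.3 CPM, was well above the other 2 samples, and the lowest of these was just below the highest sedentary library. It also had the highest adipocyte sum of its group, 681 CPM. Plin5 gave 0.25 (SE 0.24, edgeR adjusted p = 0.868), and Lipe 0.49 (SE 0.27, edgeR adjusted p = 0.619). All 6 tested adipocyte markers had log2 changes above 0 in this comparison, with a median of 1.17, and 2 of them had an unadjusted p under 0.05. The adipocyte sums were 300 to 377 CPM in knockout sedentary and 361 to 681 CPM in knockout trained samples. None of the markers passed after adjustment (edgeR), and their part in the Dgat2 and Lipe values was not tested. Without library 2 of the vehicle trained group 0 of the 10 genes passed as well, against 0.843% of all tested genes. At an unadjusted p under 0.05 there were then 3 of 10, against 2516 of all 14359 tested genes. They were Dgat2 (log2 change 0.75) and Pnpla2 (0.27), both higher, and Gpam (-0.37), lower.

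The last question was whether the training response differed by labelled genotype, which the interaction tests. None of the 10 genes passed (edgeR), nor did any gene of the table, 0% of those tested, and DESeq2 called 0 of the 10. At an unadjusted p under 0.05 there were 2 of 10, Dgat2 and Plin5, against 7.49% of all tested genes. For Dgat2 the training response was higher in knockout than in vehicle muscle by a log2 difference of 1.39 (SE 0.51, edgeR adjusted p = 0.646), and for Plin5 by 1.05 (SE 0.32, edgeR adjusted p = 0.604). Without library 2 these were 1.14 and 1.21 (edgeR adjusted p = 0.262 and 0.225). In that fit Pnpla2 joined them, which gave 3 of 10 at an unadjusted p under 0.05, against 1643 of all 14359 tested genes. Pnpla2 stood at 0.51 without library 2 (edgeR adjusted p = 0.262) and at -0.24 with all samples (edgeR adjusted p = 0.910). A difference between the sedentary and the trained knockout effect was therefore not shown for any of these genes.

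**Figure D3:**
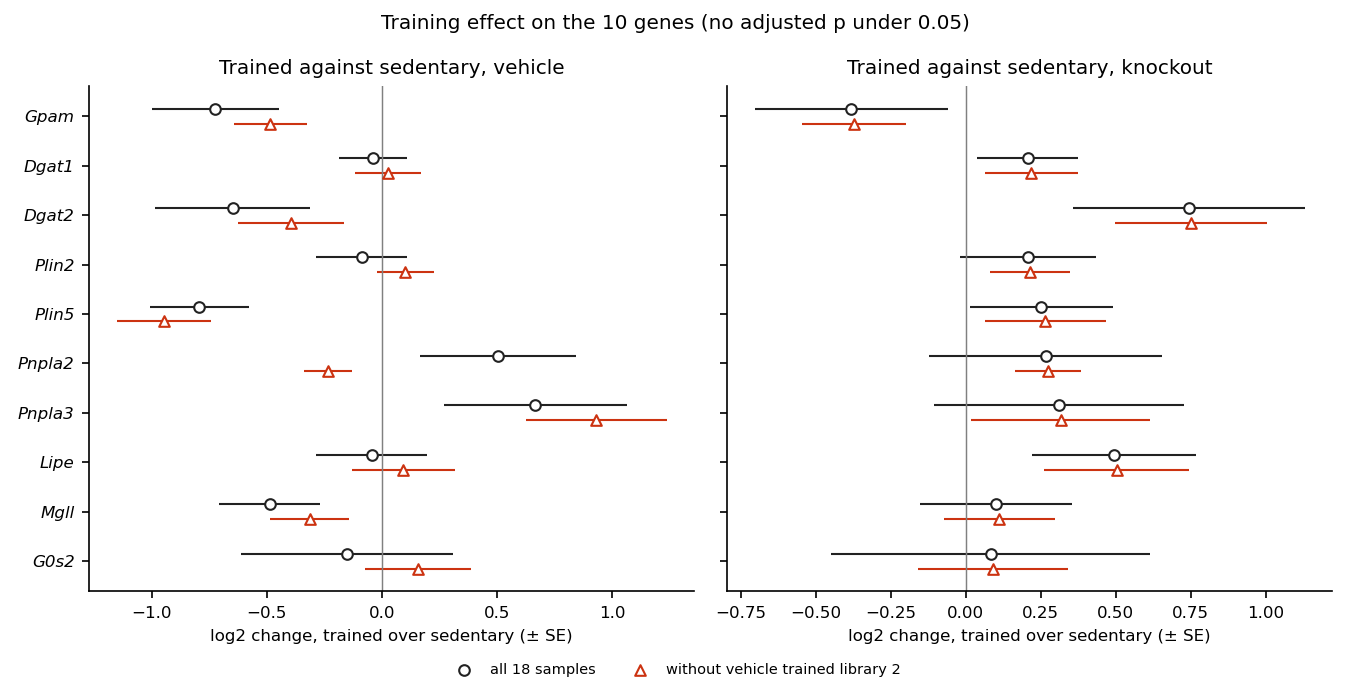
The log2 change of each gene, trained over sedentary (± SE), is plotted along the horizontal axis for vehicle (left) and knockout muscle (right), with all 18 samples as black circles and without library 2 of the vehicle trained group as red triangles. No gene passed at an adjusted p under 0.05; Plin5 stands at -0.79 and Gpam at -0.72 in vehicle muscle, and Dgat2 at 0.74 in knockout muscle.

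**Figure D4:**
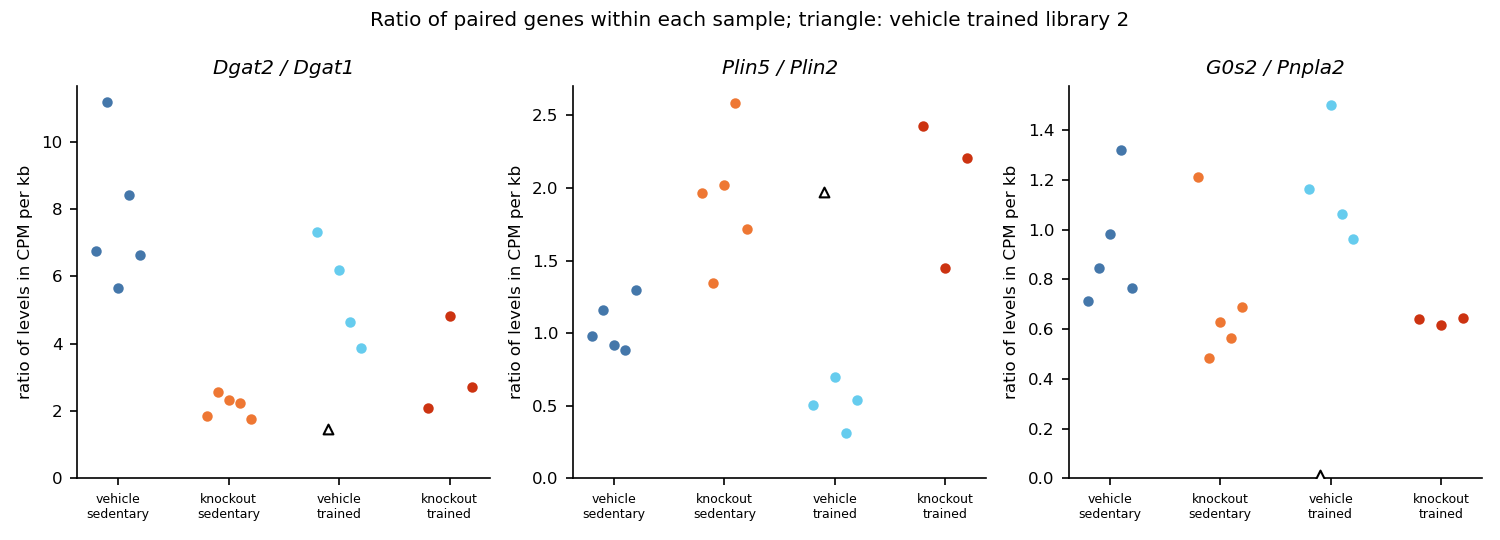
Ratios of 2 genes within each sample, from levels in CPM per kb, are plotted on the vertical axis by group for Dgat2 over Dgat1, Plin5 over Plin2 and G0s2 over Pnpla2; dots are samples and the triangle is library 2 of the vehicle trained group. Dgat2 over Dgat1 is 5.65 or more in vehicle sedentary samples and 2.55 or less in knockout sedentary ones, and library 2 has the lowest G0s2 over Pnpla2, 0.0148.

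Other genes of glycerolipid metabolism were read from 5 lists, and their counts are set beside the same backgrounds. Of 9 acyltransferases that act between Gpam and the last step, or beside them, 7 were tested, and 1 passed in each knockout comparison, Agpat3, higher. Over all tested genes 2.33% passed in sedentary and 3.29% in trained muscle. Agpat3, which encodes an acyltransferase acting on lysophospholipids, stood at 105.4 ± 5.90 CPM in the vehicle and 215.2 ± 25.8 CPM in the knockout libraries without exercise (SD, n = 5 each), a log2 difference of 0.97 (SE 0.15, edgeR adjusted p = 0.000910). In trained muscle it was 81.0 to 124 CPM in vehicle and 145 to 239 CPM in knockout samples, a log2 difference of 1.00 (SE 0.17, edgeR adjusted p = 0.00231). The groups did not overlap in either state. Without library 2, Gpat4 and Agpat1 also passed in sedentary muscle, both lower, with log2 changes of -0.26 and -0.37 (edgeR adjusted p = 0.0339 and 0.0101). In that fit 6.98% of all tested genes passed. Gpat4 encodes an enzyme of the same first step as Gpam, on the endoplasmic reticulum, and Agpat1 one that adds the second acyl chain.

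Among 5 other lipases and cofactors, all tested, 1 passed in sedentary and 1 in trained muscle, both lower, against 2.33% and 3.29% of all tested genes. Without library 2 of the vehicle trained group 2 passed in each, all lower, against 6.98% and 8.66%. Ces1d, a carboxylesterase that hydrolyses triglyceride, stood at 50.5 to 65.2 CPM in the vehicle and 7.82 to 17.9 CPM in the knockout libraries without exercise, a log2 difference of -2.30 (SE 0.43, edgeR adjusted p = 0.00438). It belongs to a family of near copies lying side by side, so its counts are uncertain. In trained muscle its log2 change was -1.82 (SE 0.50, edgeR adjusted p = 0.0548), and -2.11 without library 2 (edgeR adjusted p = 0.000108). That library was at 7.60 CPM, below the knockout samples, and the other vehicle trained libraries were at 51.6 to 90.2 CPM.

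Abhd6, which encodes a monoglyceride hydrolase, stood at 8.85 ± 0.484 CPM in the vehicle and 3.99 ± 0.419 CPM in the knockout libraries without exercise (SD, n = 5 each), without overlap. Its log2 change was -1.20 (SE 0.34, edgeR adjusted p = 0.0779) with all samples and -1.20 with SE 0.13 without library 2 (edgeR adjusted p = 6.59e-06). In trained muscle it was -1.52 (SE 0.40, edgeR adjusted p = 0.0438) and, without library 2, -0.86 (SE 0.16, edgeR adjusted p = 0.00170). Library 2 held 27.9 CPM of it and the other vehicle trained libraries 6.03 to 8.53 CPM, all above the knockout trained samples at 3.14 to 4.59 CPM.

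None of 3 phosphatidate phosphatases (Lpin1, Lpin2, Lpin3), 9 other droplet proteins and 11 genes of fatty acid synthesis passed in either knockout comparison with all samples (edgeR). At an unadjusted p under 0.05 there were 1, 0 and 3 of them in sedentary muscle, against 9.81% of all tested genes, and 1, 2 and 2 in trained muscle, against 17.2%. Without library 2, Lpin3 (log2 change 0.62) and Scd2 (0.52) were higher and Mlxipl (-0.61) lower in sedentary muscle. Fitm1, which helps droplets form, was then higher in trained muscle (0.48). All 4 passed by edgeR at the same threshold, against 6.98% of all tested genes in sedentary and 8.66% in trained muscle. For training, 0 genes of the 5 lists passed with all samples in either genotype. Fitm1 was higher after training in knockout muscle without library 2, with a log2 difference of 0.51 (edgeR adjusted p = 0.0296). In that fit 0.843% of all tested genes passed. The Fitm1 changes in the 2 comparisons share the knockout trained samples.

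**Figure D5:**
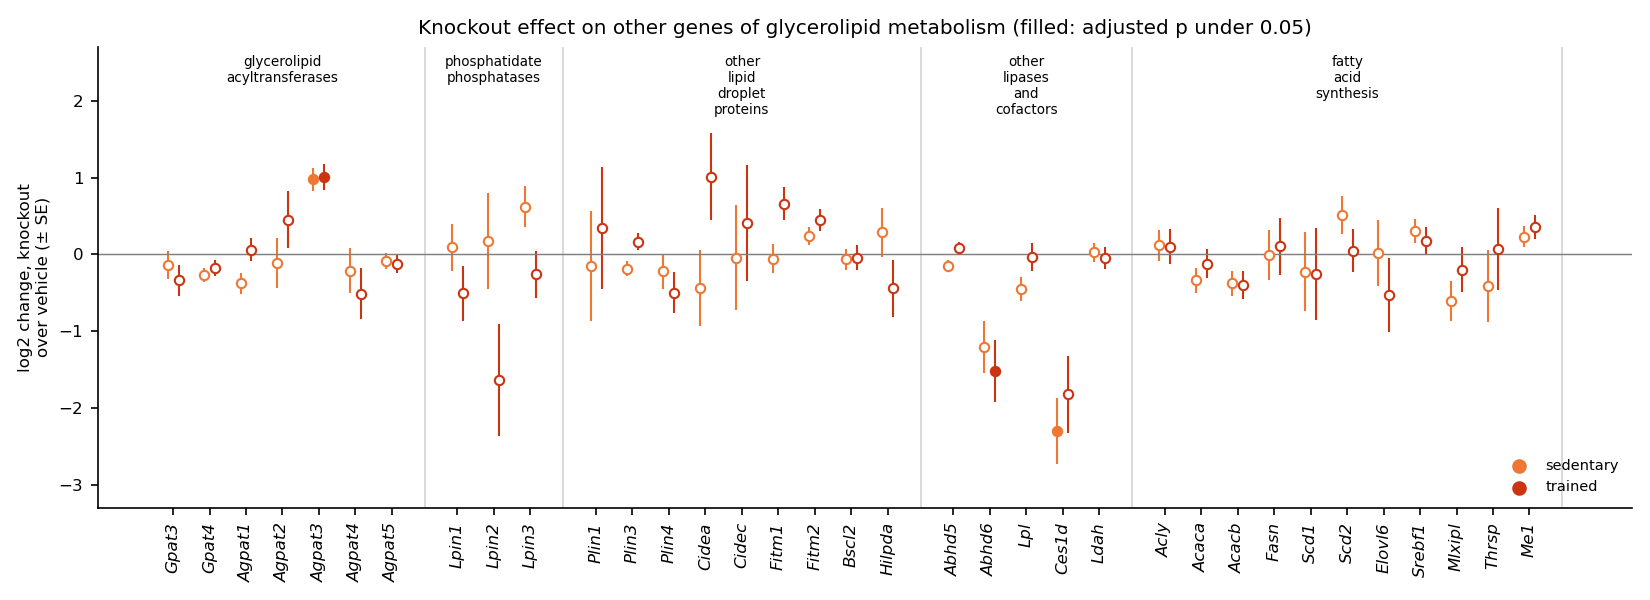
The log2 change, knockout over vehicle (± SE), of the tested genes of the 5 lists is plotted on the vertical axis, gene by gene, for sedentary (orange) and trained muscle (red), with all 18 samples; filled symbols have an adjusted p under 0.05. Agpat3 stands at 0.97 and 1.00, Ces1d at -2.30 in sedentary muscle and Abhd6 at -1.52 in trained muscle.

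The genes whose levels followed those of the 2 called members most closely were taken as the 3 with the highest Spearman rho of log2 CPM over all tested genes and the 18 samples. For Dgat2 they were Sntb1, Vdac1 and Bpgm, with rho of 0.88 each. For Plin5 they were Acadm, Hadhb and Acad12, with rho of 0.95, 0.94 and 0.94. These points share the 4 groups and the depth of each library, so the values describe these samples. Mb, the muscle fibre marker for myoglobin, was 1 of 7 muscle markers to pass, higher in knockout trained muscle by a log2 difference of 0.96 (edgeR adjusted p = 0.0438), in the comparison in which Plin5 passed. Macrophage marker sums were 139 to 340 CPM in vehicle trained and 47.0 to 267 CPM in knockout trained samples. Of the 6 markers 0 passed (edgeR) and 3 were at an unadjusted p under 0.05, all lower, and 1 without library 2 of the vehicle trained group. The part of either in the Plin5 result was not tested.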

How the data were processed

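The deposited table, made by the authors, holds an estimated count per gene, from the values, although its name gives another unit: 72.0% of values are whole and library totals differ. Per the submitters' processing notes, Partek, STAR 2.7.8a and DESeq2 were used, with the builds mm10 and GRCm39 named and no role given. The counting program, annotation and strand setting are not given in the sources used here. No gene sums to under 10 counts, and 24 symbols stand on more than 1 row, none of them a member.

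The members and gene lists were chosen with earlier results of these data known. Estimated counts were rounded. Pairs of libraries were compared by their squared differences over the counting expectation, and a pair was summed where this noise at 1000 to 10000 counts was under 1.5 times that at 10 to 100 counts. The main test was edgeR 4.0.16 (R 4.3.3), a two-sided quasi-likelihood test with TMM scaling on genes at 1 CPM in at least 5 of 20 libraries, 4 group means, and Benjamini-Hochberg adjustment over 14359 genes at 0.05. SE came from the change and its F statistic. The method was tested on simulated data, with 100 changed genes of each size. At a log2 change of 0.75 it recovered 37 in the sedentary and 18 in the trained knockout comparison. At 1.5 it recovered 81 and 77, and 4 and 5 unchanged genes were called. Members that did not pass may therefore hold changes of the smaller size. Alternatives were DESeq2 1.42.0, its size factors in edgeR, no filter, 20 separate libraries, only the groups compared, a replicate block, and leaving out each sample. Genes named were the members, listed genes passing the threshold, Adipoq, Fabp4, other markers that pass and the 3 genes most like each called member. Exon lengths and overlaps came from GENCODE M21, promoters from RefSeq (GRCm38.p6). Depth limits precision for Pnpla3 most.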

Additional observations from a re-analysis of the deposited data

Results flagged for a closer look

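In 30 groups of 5 libraries (10 genes in the 3 groups with 5 samples), 1 library was tested for standing far from the other 4, by its gap to the nearest over the range, with a limit of 0.71. Chance gives about 1 in 20 groups, here 1.5, and 4 were found. The genes were read in the same libraries, so the tests are not independent and no excess over chance can be drawn. Library 2 of the vehicle trained group was low in Gpam, at 37.7 CPM with the other 4 at 135.6 to 175.2 CPM, and high in Pnpla2, at 636.7 CPM with the others at 141.6 to 172.2 CPM. Library 2 of the vehicle sedentary group was high in Dgat2, at 95.9 CPM with the others at 56.9 to 63.8 CPM. Library 4 of that group was low in Pnpla2, at 161.4 CPM with the others at 189.1 to 199.3 CPM.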

How the results depend on the processing

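Lower Dgat2 in knockout sedentary muscle passed in all 24 settings, and higher Plin5 in knockout trained muscle in 23. The members called in sedentary muscle were 1 in the main test, 3 with DESeq2 (537 genes over the table), 2 with 20 separate libraries and 4 with only the groups compared (1177 genes). In trained muscle, DESeq2 called 907 genes, 20 separate libraries 1225, and only the groups compared 20, with 0 members. In that last fit, which included vehicle trained library 2, the adjusted p of Plin5 was 0.0513 (edgeR). The cause of the low count was not tested. For training, DESeq2 called 15 genes in vehicle and 180 in knockout muscle (49 with 20 separate libraries), and 13 for the interaction, none of them members. Replicate numbers showed no sign of pairing. Deviations were correlated over 0.1 in 9 of 30 same-numbered pairs of libraries (range -0.31 to 0.28) and in 40 of 120 differently numbered ones (range -0.37 to 0.35). With the replicate block, which also takes the 20 libraries as separate, 980 genes passed in trained muscle and the log2 change of Pnpla2 turned to 0.16. Against 20 separate libraries without the block, members called in sedentary muscle went from 2 to 1 and genes for training in knockout muscle from 49 to 0. Leaving out 1 sample at a time gave 251 to 1002 genes and 1 to 3 members in sedentary muscle, 177 to 1244 genes and 1 to 2 members in trained muscle, 0 to 1 genes for training in vehicle and 0 to 397 in knockout muscle. The lowest value for trained muscle came without knockout trained pair 3 and 5 and the highest without vehicle trained library 2, which also gave 1002. Plin5 in sedentary muscle also passed without vehicle trained library 4 (adjusted p = 0.0369, edgeR), and Pnpla3 without knockout sedentary library 2 or vehicle trained library 1. Log2 changes that turned sign there were Dgat1 for the sedentary knockout effect (-0.025 to 0.13), and for the trained one Gpam (-0.36 to 0.0035), Plin2 (-0.035 to 0.31), Pnpla2 (-0.22 to 0.68) and G0s2 (-0.22 to 0.37). For training in vehicle muscle they were Dgat1 (-0.14 to 0.044), Plin2 (-0.19 to 0.10), Pnpla2 (-0.24 to 0.67), Lipe (-0.42 to 0.093) and G0s2 (-0.44 to 0.16), for training in knockout muscle G0s2 (-0.044 to 0.37), and for the interaction Pnpla2 (-0.40 to 0.51) and G0s2 (-0.065 to 0.53). None of these had passed with all samples. Where a group is left with 2 samples, their spread is taken to be that of the other groups.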
